A study of Homo sapiens with 12 samples.

Results

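The alpha and beta tubulins are the subunits of microtubules, and 10 of their genes were followed here across 6 groups of arrays. They are the alpha tubulin genes TUBA1A, TUBA1B, TUBA1C and TUBA4A and the beta tubulin genes TUBB, TUBB2A, TUBB2B, TUBB3, TUBB4B and TUBB6. The members were all probes whose gene symbol is 1 of these 10, of 20044 genes named on the array. They had 14 probes, 2 each for TUBA1A, TUBA1C, TUBB and TUBB6 and 1 each for the 6 other genes. Of the 10 genes, 9 passed the filter on dim probes and were tested among 10494 genes in all. TUBB2B did not pass and is given by its values alone.

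The study transfected MCF10A, an immortalized line of breast epithelium that does not form tumors, and MDA-MB-231, a breast cancer line of mesenchymal type, with miRNA mimics at 30 nM. RNA was taken after 48 h and measured on Illumina HumanHT-12 v4 arrays. Each line had 2 arrays with the hsa-miR-140-3p mimic, 2 with the 5’isomiR-140-3p mimic and 2 with control mimics, so that 12 arrays form 6 groups. The control group of a line holds 1 array of mimic-ctrl1 and 1 of mimic-ctrl2, and its spread therefore also holds any difference between these reagents. All 6 groups received the lipid reagent Lipofectamin2000 and a mimic, so no group shows untransfected cells, and each tissue type is represented by 1 established line. By the study's methods the lines grew in different media with different sera. Differences between the lines cannot be told apart from those of the media.

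Alpha and beta tubulin pair into dimers that assemble end to end into microtubules, which build the mitotic spindle and serve as tracks for transport. Human cells carry several genes for each subunit, called isotypes, and the mixture differs between cell types. New tubulin is folded by the prefoldin and CCT chaperonin complexes and joined into dimers by the tubulin folding cofactors. Cells also control tubulin mRNA by autoregulation, in which TTC5 binds new tubulin chains at the ribosome and, through SCAPER, brings in the CCR4-NOT deadenylase so that the mRNA is degraded.

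A miRNA finds its targets mainly through its seed, bases 2 to 8 from its 5′ end, and a 5′ isomiR starts at another base than the annotated miRNA and so has another seed. The 2 sequences below are shown because the mimics differ in this way, by a start that lies 1 base downstream in the isomiR. The annotated miRNA is called the canonical mimic below. They were read from RefSeq (GRCh38.p14, plus strand), at chr16:69933142-69933162 for the annotated miRNA and chr16:69933143-69933164 for the isomiR, and the seeds are in capitals.
hsa-miR-140-3p: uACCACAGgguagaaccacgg
5’isomiR-140-3p: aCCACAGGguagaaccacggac

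The second set of sequences comes from the members themselves. RefSeq promoter windows, which run from 250 bases before to 50 after a start, matched all 10 members, with 15 windows in all. The letters TATAA, a form of the TATA box, were searched on the gene's strand with their first base 20 to 40 bases before the start, a motif chosen after the sequences were seen. They were found in 5 windows, 1 each of TUBA1C, TUBA4A, TUBB2A, TUBB3 and TUBB4B, with the first base 27 to 31 bases before the start. Of all 35116 windows, 3.91% held them in this range, and 20.4% held them anywhere on either strand. The 3 members shown are those with a match that were called in any comparison below, and each run of 30 bases has the match in capitals. They lie at chr6:3157557-3157586 on the minus strand for TUBB2A, chr16:89923300-89923329 on the plus strand for TUBB3 and chr2:219253930-219253959 on the minus strand for TUBA4A. A match is a description of these letters and not evidence of a site.
TUBB2A: cgggtccccgggTATAAaagaccgagctgg
TUBB3: cggggccgcggcTATAAgagcgcgcggccg
TUBA4A: cccccccccgccTATAAgggcggtgcggca

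All values below are log2 intensities after background correction and quantile normalization over the 12 arrays. A difference is a log2 fold change from limma with its standard error (SE), and p-values were adjusted over all 10494 genes by the method of Benjamini and Hochberg. A gene was called lower where it was below 65% of the comparison group, a log2 fold change of -0.62, and higher where its log2 fold change was above 0.72, both with an adjusted p under 0.05. The study's methods describe the 2 arrays of each miRNA mimic as biological replicates, while the controls were 1 array of each control mimic, so the spread of the control group includes any difference between these mimics. Correlations over the 10494 genes were 0.992 to 0.995 between replicates of 1 mimic, and 0.985 (MCF10A) and 0.981 (MDA-MB-231) between the control arrays. An array had 13002 to 14837 probes above background. Of the markers of the lines, KRT5, KRT14 and CDH1 were above background on 6 of 6 MCF10A arrays and 0 of 6 MDA-MB-231 arrays. The MCF10A markers EPCAM and LAMB3 were above background on 6 of 6 arrays of both lines and were called lower in MDA-MB-231. VIM and AXL were called higher in MDA-MB-231. The MDA-MB-231 markers ZEB1, above background on 0 of 6 arrays of that line, and SPOCK1, called lower there, went against their list, and of the luminal markers ESR1 and PGR were above background on no array and GATA3 on 6 of 6 MCF10A arrays.

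**Figure D1:**
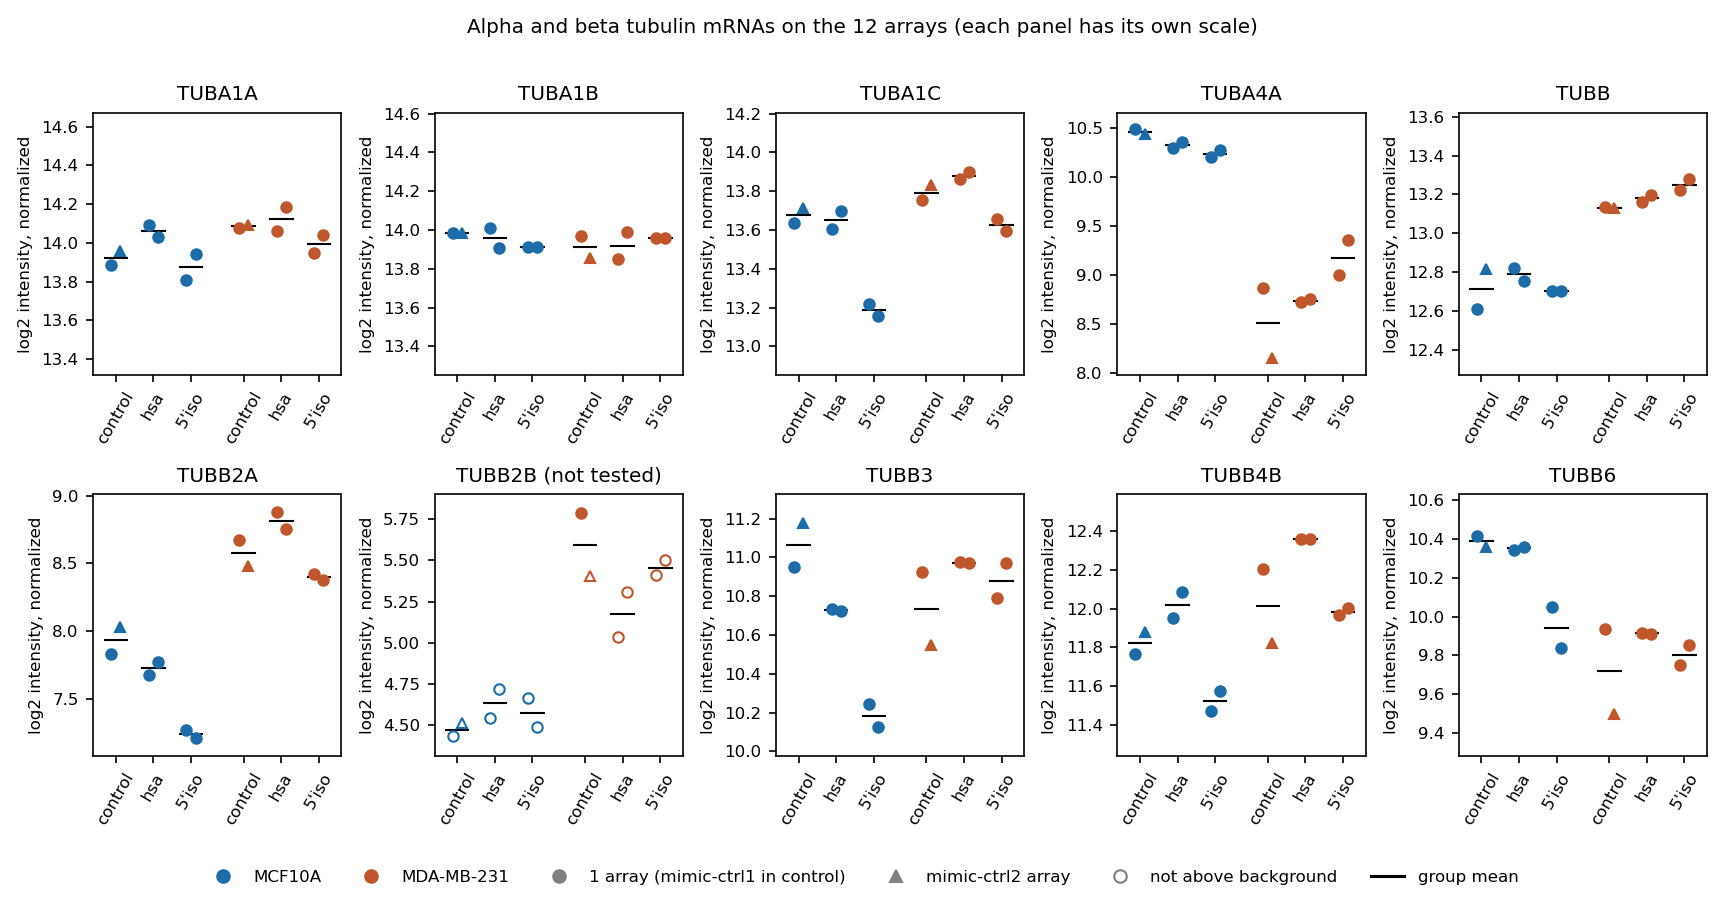
Normalized log2 intensity (vertical axes, each panel with its own scale) of the 10 tubulin genes on the 12 arrays, with control mimics, hsa-miR-140-3p (hsa) and 5’isomiR-140-3p (5'iso) along the horizontal axes. Points are arrays, triangles mimic-ctrl2, open symbols arrays where the probe was not above background and bars group means of 2 arrays. TUBB3 and TUBB2A are lowest on the 2 MCF10A arrays with 5’isomiR-140-3p, and TUBA4A is lower on every MDA-MB-231 array than on every MCF10A array.

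The baseline isotype pattern of each line was read from the control mimics, each probe against itself, from values that the authors had normalized between arrays before deposit. TUBA4A and TUBB6 were lower in MDA-MB-231 than in MCF10A, TUBB2A and TUBB were higher by less than the fold threshold, and the 5 others had adjusted p-values of 0.083 to 0.58. Of the 9 tested members 2 were called lower and 0 higher, where 19.9% of all genes were called lower and 20.5% higher. With the adjusted p alone, 2 members were lower and 2 higher, against 26.4% and 29.8% of all genes. The median of the 9 members was 0.12 and that of all genes 0.04.

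TUBA4A encodes an alpha tubulin that, unlike most others, is made without a tyrosine at its end. Its values were 10.49 and 10.44 on the MCF10A control arrays (mimic-ctrl1 first here and below) and 8.86 and 8.15 on the MDA-MB-231 control arrays. Over all mimics it lay between 10.21 and 10.49 in MCF10A and between 8.15 and 9.36 in MDA-MB-231, so that the lines did not overlap on any of the 12 arrays. The difference between the lines was -1.96 (SE 0.21, n = 2 arrays per group, limma adjusted p = 2.910e-05), which is 25.7% of the MCF10A level. It remained called in each of the 12 fits that left out 1 array, with differences from -2.32 to -1.60.

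TUBB6, a beta tubulin of wide expression, had values of 10.42 and 10.36 on the MCF10A control arrays and 9.94 and 9.50 on the MDA-MB-231 control arrays. Each MDA-MB-231 control array was below each MCF10A control array. The difference was -0.67 (SE 0.15, limma adjusted p = 0.00373), 62.8% of the MCF10A level and thus close to the threshold of 65%. Without the mimic-ctrl2 array of MDA-MB-231 it was -0.45 and not called. Its second probe gave -0.60 (limma adjusted p = 0.00996), which is not past the fold threshold.

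TUBB2A and TUBB2B are near-identical neighbors on chromosome 6 that encode the class II beta tubulins. TUBB2A had 7.84 and 8.03 on the MCF10A control arrays and 8.67 and 8.48 on those of MDA-MB-231, a difference of 0.64 (SE 0.12, limma adjusted p = 0.00151) or 155.9% of the MCF10A level. It passed the higher threshold without the mimic-ctrl2 array of either line, at 0.74 in both cases. TUBB2B had deposited intensities of 90.2 to 105.2 on the 6 MCF10A arrays, where background lay at 130 to 142. On the 6 MDA-MB-231 arrays it had 114.6 to 139.8 and was above background on 1 of them, the mimic-ctrl1 array. The probe sequences were not used here, so whether a probe for one of these genes also reads the other could not be checked.

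TUBB, the class I beta tubulin found in most cells, had 12.61 and 12.82 on the MCF10A control arrays and 13.13 and 13.13 on those of MDA-MB-231. The difference was 0.42 (SE 0.11, limma adjusted p = 0.00945) on its brighter probe. Its dimmer probe gave 0.76 (limma adjusted p = 0.00460), which is past the threshold. On that probe the 2 MCF10A control arrays stood apart from each other, at 11.00 and 11.57, and all 6 MDA-MB-231 arrays lay between 12.04 and 12.42.

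TUBB3, the class III beta tubulin best known as a neuronal isotype, had 10.95 and 11.18 on the MCF10A control arrays and 10.92 and 10.55 on those of MDA-MB-231 (difference -0.33, SE 0.15, limma adjusted p = 0.0832). The widely expressed alpha tubulins TUBA1A, TUBA1B and TUBA1C differed between the lines by 0.16, -0.07 and 0.12, and TUBB4B, the class IVb beta tubulin, by 0.19. Intervals of these 5 genes held 0. Deposited intensities of the brighter TUBA1A and TUBA1C probes and of the TUBA1B probe lay between 9257 and 18462, while the brightest probe of an array lay between 21380 and 23648. These 3 genes encode near-identical proteins, and their probes could not be checked for shared signal.

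**Figure D2:**
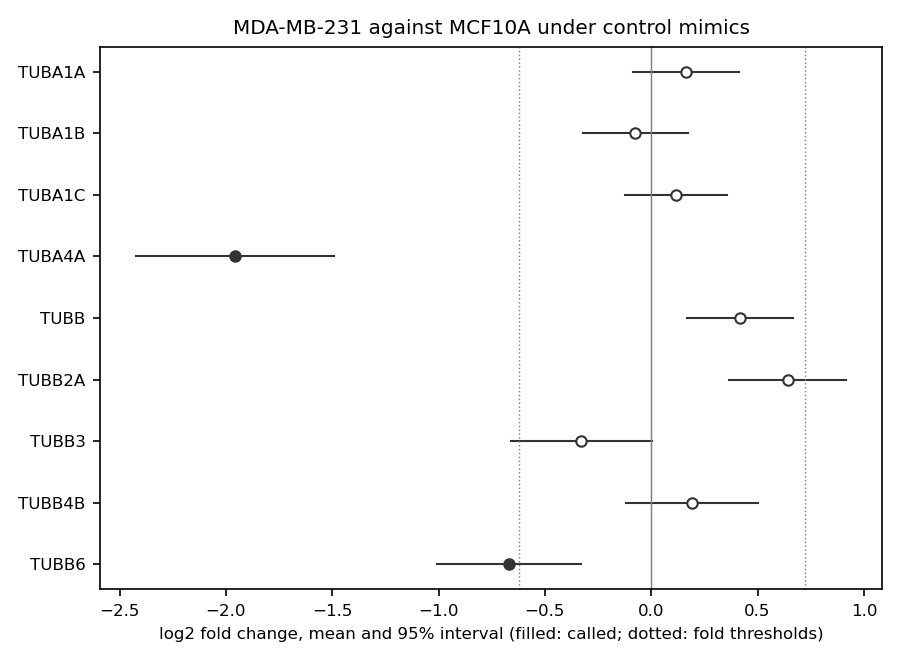
Log2 fold change of 9 tubulin genes in MDA-MB-231 against MCF10A under the control mimics (horizontal axis), with the mean of 2 against 2 arrays and its 95% interval. Filled points are called and dotted lines mark the thresholds of -0.62 and 0.72. TUBA4A lies at -1.96 and TUBB6 at -0.67, and the other 7 genes lie between the thresholds.

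With 5’isomiR-140-3p in MCF10A, TUBB3 fell to 54.3% and TUBB2A to 62.1% of the control level. Of the 9 members, 2 were called lower and 0 higher, where 7.34% of all genes were called lower and 5.27% higher. With the adjusted p alone, 3 members were lower and 0 higher, against 10.9% and 9.90% of all genes. Both arrays with the isomiR lay below both control arrays for 7 members, which was so for 30.0% of all genes. The median of the 9 members was -0.30 and that of all genes 0.01. All 9 differences were below 0 on the tested probe, as were 49.4% of those of all genes. That of TUBB, -0.01, turned to 0.08 with the mean of its probes and to 0.09 without mimic-ctrl2. That of TUBA1A, -0.05, turned to 0.02 without replicate 1 of the isomiR. The dimmer probes gave 0.18 for TUBB (limma adjusted p = 0.541) and -0.28 for TUBA1A (limma adjusted p = 0.173). On the dimmer TUBA1A probe both isomiR arrays, at 11.34 and 11.46, lay below both control arrays, at 11.65 and 11.72. In a whole culture, less mRNA per cell and fewer cells that express a gene cannot be told apart.

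TUBB3 had 10.95 and 11.18 on the control arrays, 10.74 and 10.73 with the canonical mimic and 10.24 and 10.13 with the isomiR. The 3 groups of MCF10A did not overlap, and the isomiR group was the lowest of all 6 groups. The difference between isomiR and control was -0.88 (SE 0.15, 95% interval -1.21 to -0.55, limma adjusted p = 0.00287). TUBB3 was called in each of the 12 fits that left out 1 array, between -0.99 and -0.77.

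TUBB2A had 7.84 and 8.03 on the control arrays, 7.68 and 7.78 with the canonical mimic and 7.28 and 7.22 with the isomiR. Here too the 3 groups did not overlap, and the 6 MDA-MB-231 arrays all lay above the 6 MCF10A arrays. The difference between isomiR and control was -0.69 (SE 0.12, 95% interval -0.97 to -0.41, limma adjusted p = 0.00416). Without the mimic-ctrl2 array it was -0.59 and past the p threshold but not the fold threshold, and it was -0.48 without background correction and -0.49 on the deposited values.

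TUBA1C had 13.64 and 13.72 on the control arrays and 13.22 and 13.16 with the isomiR. Its difference of -0.49 (SE 0.11, limma adjusted p = 0.0111) left 71.3% of the control level and was not past the fold threshold. Its second probe had 13.44 and 13.43 on the control arrays and 13.52 and 13.39 with the isomiR, a difference of 0.03 (limma adjusted p = 0.908). Over the 12 arrays, with each line centered on its mean, the 2 probes correlated at 0.29 for TUBA1C, 0.51 for TUBA1A, 0.85 for TUBB and 0.88 for TUBB6. The level of TUBA1C with the isomiR thus depended on the probe.

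TUBB6 had 10.42 and 10.36 on the control arrays and 10.05 and 9.84 with the isomiR (difference -0.45, limma adjusted p = 0.0642), and its second probe gave -0.55 (limma adjusted p = 0.0404). Neither probe was past the fold threshold. TUBB4B had 11.77 and 11.88 on the control arrays and 11.47 and 11.58 with the isomiR (difference -0.30, limma adjusted p = 0.164). TUBA4A, at -0.22, and TUBA1B, at -0.07, had adjusted p-values of 0.50 and 0.70, and those of TUBA1A and TUBB were 0.81 and 0.95. TUBA1B had the same normalized value, 13.99, on both control arrays and 13.91 on both isomiR arrays, since quantile normalization gives 1 value to probes of the same rank.

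**Figure D3:**
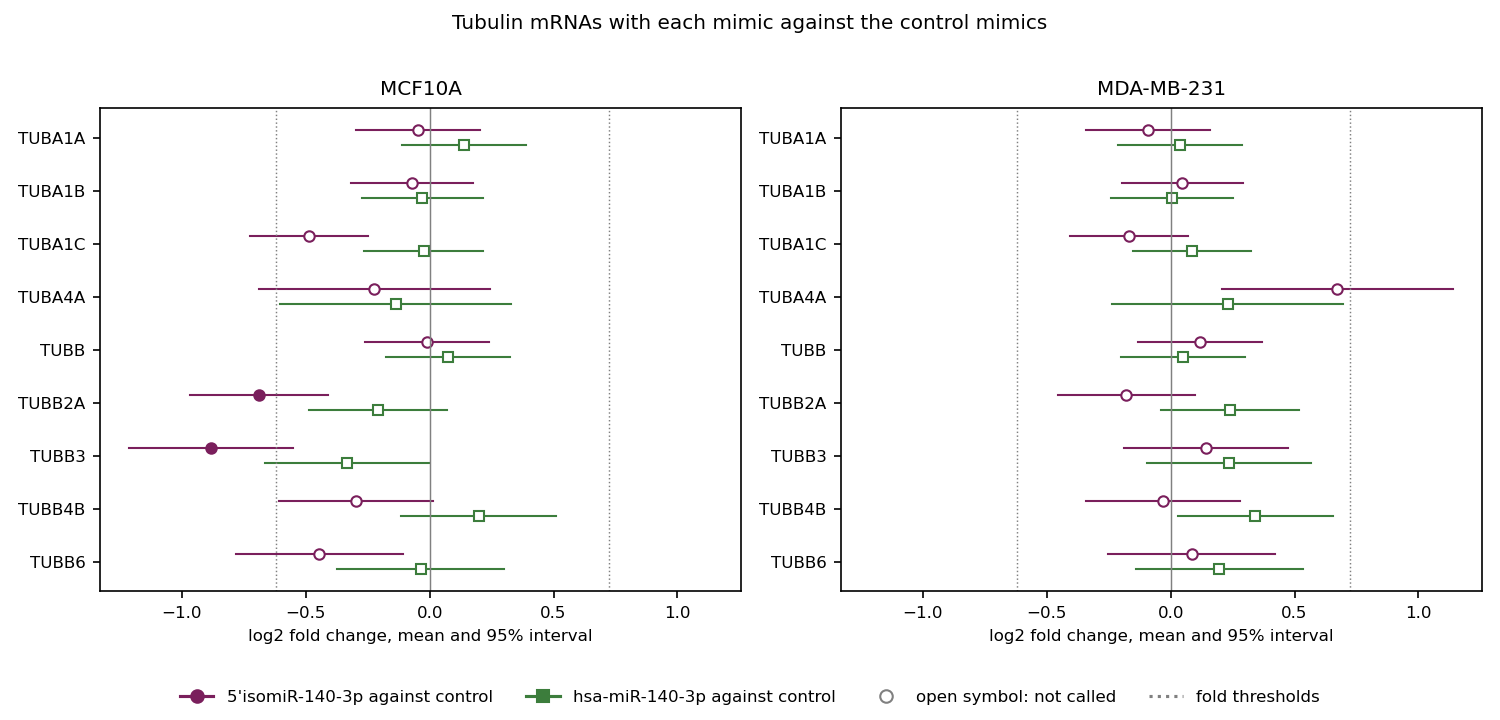
Change (log2 scale) of 9 tubulin genes under 5’isomiR-140-3p (circles) and hsa-miR-140-3p (squares) against the control mimics in MCF10A (left) and MDA-MB-231 (right), with means of 2 against 2 arrays and 95% intervals. Filled symbols are called and dotted lines mark the fold thresholds. The only filled symbols are TUBB3 at -0.88 and TUBB2A at -0.69 with the isomiR in MCF10A.

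In MDA-MB-231, no tubulin was called with 5’isomiR-140-3p, either lower or higher, while 5.09% of all genes were called lower and 2.40% higher. One member had an unadjusted p under 0.05, and the median of the 9 members was 0.05. TUBB3 had 10.92 and 10.55 on the control arrays and 10.79 and 10.97 with the isomiR, so that the groups overlapped (difference 0.14, 95% interval -0.19 to 0.47, limma adjusted p = 0.599). TUBB2A had 8.67 and 8.48 on the control arrays and 8.42 and 8.38 with the isomiR, lower on both arrays (difference -0.18, 95% interval -0.46 to 0.10, limma adjusted p = 0.408).

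TUBA4A had 8.86 and 8.15 on the control arrays of MDA-MB-231 and 8.99 and 9.36 with the isomiR, a difference of 0.67 (SE 0.21, limma adjusted p = 0.0677) at 159.4% of the control level. Its 2 control arrays were 0.72 apart, the widest gap of any member between the control mimics in either line. Without mimic-ctrl1 the difference was 1.03 (limma adjusted p = 0.00450) and the gene was called higher, and without mimic-ctrl2 it was 0.31. In MDA-MB-231, mimic-ctrl2 lay below mimic-ctrl1 for TUBB6, TUBB4B and TUBB3 too, by 0.44, 0.38 and 0.37.

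The difference between the lines in the response to 5’isomiR-140-3p was tested directly. It was 1.02 for TUBB3 (SE 0.21, 95% interval 0.56 to 1.49, limma adjusted p = 0.0225), the 1 of 9 members called, with 0 in the other direction. Of all genes, 2.18% were called in this direction, that is lower with the isomiR in MCF10A relative to MDA-MB-231, and 3.29% in the other. TUBA4A had 0.90 (limma adjusted p = 0.120), TUBB6 0.53 (0.195) and TUBB2A 0.51 (0.134), so a different response of TUBB2A in the 2 lines was not shown. The call of TUBB3 was kept in 7 of the 12 fits that left out 1 array and lost without the MCF10A mimic-ctrl2 array or any of the 4 isomiR arrays, with differences of 0.91 to 1.11 and adjusted p-values of 0.054 to 0.086 there.

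With hsa-miR-140-3p no tubulin was called in either line. In MCF10A, 0.715% of all genes were called lower and 0.143% higher. In MDA-MB-231, 1.02% were called lower and 0.191% higher. The same control arrays serve both mimics, so the differences of the 2 mimics from control are not independent. In MCF10A the lowest member was TUBB3, at 10.74 and 10.73 against 10.95 and 11.18 (difference -0.33, 95% interval -0.67 to -0.00384, limma adjusted p = 0.354), and the highest TUBB4B at 0.20. In MDA-MB-231 all 9 differences were above 0, with a median of 0.20 against -0.0042 for all genes, of which 50.8% were below 0. TUBA1B, at 0.01, turned to -0.01 with median scaling and on the deposited values. With 1 array left out, TUBA4A, TUBA1B, TUBA1A and TUBB6 fell as low as -0.13, -0.06, -0.03 and -0.02. The highest was TUBB4B, with 12.21 and 11.83 on the control arrays and 12.36 and 12.36 with the miRNA (difference 0.34, limma adjusted p = 0.288). Against mimic-ctrl2 alone it was 0.53, and against mimic-ctrl1 alone 0.15. The line difference of this response was called for 0 members, with 0% of all genes called in either direction at 833 genes with an unadjusted p under 0.05, and TUBB3 had 0.57 (limma adjusted p = 0.535).

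The mimics were also compared with each other, on 4 arrays per line that are no controls. In MCF10A, no tubulin was past the fold threshold, where 6.43% of all genes were called lower with the isomiR and 5.21% higher. With the adjusted p alone, 4 members were lower with the isomiR and 0 higher, against 9.88% and 9.67% of all genes. These were TUBA1C at -0.46 (limma adjusted p = 0.0148), TUBB2A at -0.48 (0.0240), TUBB3 at -0.55 (0.0294) and TUBB4B at -0.49 (0.0339), at 68.5 to 72.5% of the canonical level. The second TUBA1C probe gave -0.24 (limma adjusted p = 0.189). Both isomiR arrays lay below both arrays of the canonical mimic for 8 of 9 members, as for 33.1% of all genes, and TUBA1B was the exception.

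In MDA-MB-231 no tubulin was called between the mimics, where 3.58% of all genes were called lower with the isomiR and 1.45% higher. Both isomiR arrays were the lower ones for 5 of 9 members, as for 28.7% of all genes. TUBB2A stood at 8.88 and 8.75 with the canonical mimic and 8.42 and 8.38 with the isomiR (difference -0.42, limma adjusted p = 0.0752), and TUBB4B had 12.36 on both arrays against a mean of 11.99 ± 0.02 (SD, n = 2) with the isomiR (difference -0.37, limma adjusted p = 0.149). TUBA4A went the other way by 0.44 (limma adjusted p = 0.254).

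**Figure D4:**
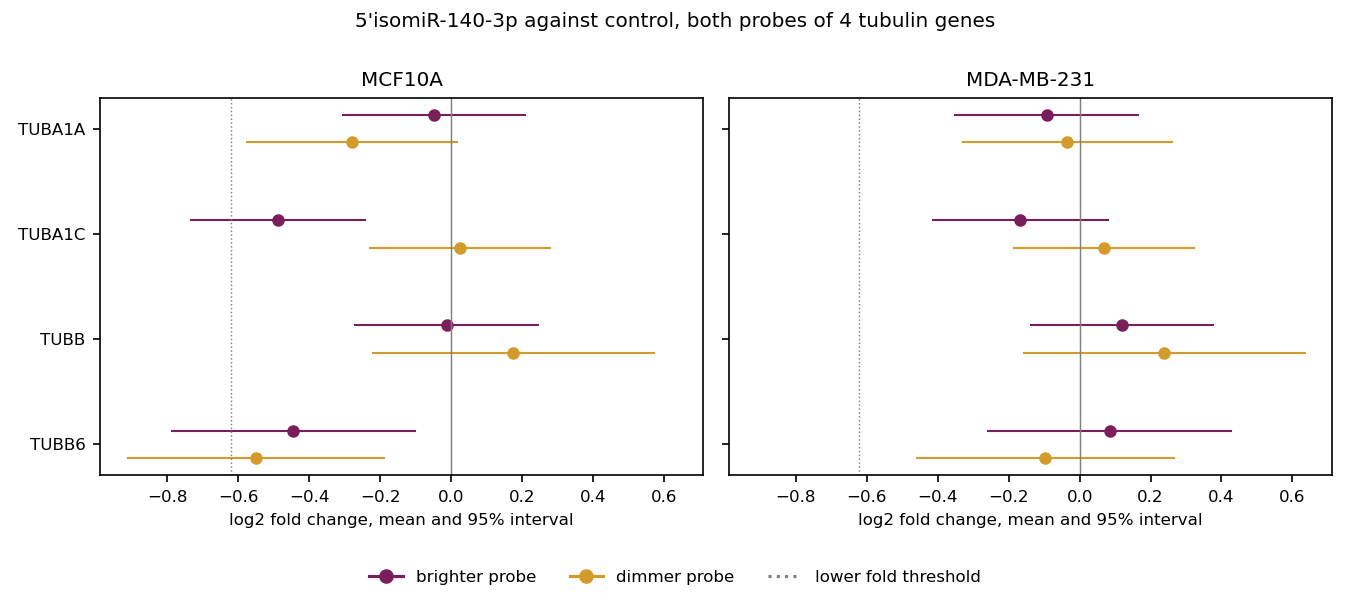
Change (log2 scale) under the isomiR against control for both probes of the 4 tubulin genes that have 2, with means of 2 against 2 arrays and 95% intervals, in MCF10A (left) and MDA-MB-231 (right). The TUBA1C probes lie at -0.49 and 0.03 in MCF10A, while those of TUBB6 lie at -0.45 and -0.55.

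Across the 6 groups the order of means differed between isotypes. For TUBB3 it ran from MCF10A control (11.07 ± 0.16, SD, n = 2) over MDA-MB-231 with the canonical mimic (10.97), with the isomiR (10.88) and with control (10.74) to MCF10A with the canonical mimic (10.73) and with the isomiR (10.18 ± 0.08). The arrays of the first 5 groups overlapped from each group to the next, and only the last stood apart. For TUBB2A each group was separate from the next, from 8.82 ± 0.09 in MDA-MB-231 with the canonical mimic to 7.25 ± 0.04 in MCF10A with the isomiR. For TUBA4A all groups were separate but the last 2, MDA-MB-231 with the canonical mimic and with control. The arrays of TUBA1A overlapped between all neighbors.

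Members were also compared by how they varied together over the 12 arrays, with each line centered on its mean, as a description. Of the 36 pairs of members, 34 had a correlation above 0, with a median of 0.43 and a range from -0.21 to 0.92. The share above 0 is not given for pairs of all genes, so the count of 34 has no background here. The highest were TUBA1C with TUBB2A at 0.92, TUBB3 with TUBB6 at 0.89 and TUBB2A with TUBB3 at 0.87. TUBA1C stands here by its brighter probe, with which its second probe correlated at 0.29. The arrays share the normalization and the mimics, so these correlations are not independent of the differences above. Among 10493 other genes, those most like TUBB3 were ANKRD27, RIPK2 and F12, each at 0.94. The mimics are shared by all genes on an array, so a high value says that 2 genes moved alike here and no more. Those most like TUBB2A were MDFIC at 0.955, APEX2 at 0.954 and HMGN4 at 0.945.

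Genes that act on tubulin were described from lists, of which 70 of 93 genes were tested. With hsa-miR-140-3p, 1 of these genes was called in either line, CDK5RAP2, a centrosomal protein that activates the gamma-tubulin ring complex. It fell in MDA-MB-231 from 9.72 and 9.75 to 9.14 and 9.03 (difference -0.64, limma adjusted p = 0.0441), a call kept without either MCF10A control array and lost without any other single array (adjusted p-values of 0.056 to 0.287). Between the mimics in MCF10A it was higher with the isomiR, by 0.95 (limma adjusted p = 0.00102).

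The CCT chaperonin, a ring of 8 subunits that folds tubulin and actin, had called genes in each line when the isomiR was set against control. In MCF10A 3 of 8 subunit genes were lower and 0 higher, with a list median of -0.34, and in MDA-MB-231 2 of 8 were lower and 0 higher, with a median of -0.27. The share of all genes called lower was 7.34% in MCF10A and 5.09% in the other line, and that called higher 5.27% and 2.40%. CCT5 had 7.42 and 7.50 on the MCF10A control arrays and 6.20 and 5.94 with the isomiR, and 8.10 and 8.43 against 6.48 and 6.24 in MDA-MB-231. CCT2 had 11.57 and 11.78 against 10.63 and 10.65 in MCF10A, and 10.93 and 11.28 against 9.79 and 9.68 in MDA-MB-231. Both were called in each of the 12 fits that left out 1 array, in both lines, and in each line both were also called lower in the direct comparison of the mimics. CCT4 fell by 0.74 in MCF10A (limma adjusted p = 0.0143), a call lost without mimic-ctrl2 or either isomiR array (adjusted p-values of 0.064 to 0.084). With hsa-miR-140-3p, 0 of 8 were called, and CCT5 differed from control by -0.23 in MCF10A and -0.05 in MDA-MB-231. The line difference of CCT5 was -0.52 (limma adjusted p = 0.236) and was not called. MKI67, up to 5.63 in MCF10A, was above background on 2 of 6 arrays there, so CCT5 with the isomiR lay close to background. A larger fall of CCT5 in that line could be measured only in part.

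Of the tubulin folding cofactors, 6 of 7 genes were tested. With the isomiR 1 of them was called lower in MDA-MB-231, where 5.09% of all genes were, and 0 in MCF10A. TBCE, which acts in dimer assembly, fell with the isomiR in MDA-MB-231 from 10.38 and 10.44 to 9.76 and 9.63 (difference -0.71, limma adjusted p = 0.00428). Between the mimics it was lower with the isomiR in MCF10A by a difference of -0.64 and in MDA-MB-231 by -0.67. The first of these was not called without replicate 1 of the canonical mimic (-0.59), and the second not without replicate 2 of the isomiR or either replicate of the canonical mimic (adjusted p-values of 0.055 to 0.081). All 6 prefoldin genes were tested and 0 were called with either mimic. The autoregulation genes TTC5, SCAPER and CNOT11 were all tested and 0 of 3 were called in any comparison, TTC5 with the isomiR at 0.07 in MCF10A (limma adjusted p = 0.830) and -0.22 in MDA-MB-231 (limma adjusted p = 0.513).

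Among the enzymes that modify tubulin, 12 of 16 were tested. With the isomiR in MCF10A 2 were called lower and 0 higher, where 7.34% of all genes were called lower and 5.27% higher. TTLL11, a ligase that adds glutamate chains to tubulin, had 7.10 and 7.52 on the control arrays and 5.95 and 6.34 with the isomiR (difference -1.16, limma adjusted p = 0.00416). In MDA-MB-231 it had 5.65 and 5.89 against 5.96 and 6.06. These control values lay close to background, as GATA3, up to 5.35 in that line, was above it on 0 of 6 arrays. A fall of TTLL11 there could be measured only in part. The line difference was 1.40 (limma adjusted p = 0.0253). That call was kept in 7 of the 12 fits that left out 1 array, and was lost without the MCF10A mimic-ctrl2 array, replicate 1 of the isomiR in MCF10A, the MDA-MB-231 mimic-ctrl1 array or either MDA-MB-231 isomiR array (adjusted p-values of 0.052 to 0.098). Against the canonical mimic in MCF10A the difference of TTLL11 was -1.13, a call lost without replicate 1 of the isomiR (adjusted p = 0.051). TTLL1, from the same family, was not above background on either isomiR array of MCF10A. It was called lower (limma adjusted p = 0.0349), but only through values below background. The gene was at least 1.45-fold lower with the isomiR, a bound that falls short of the fold threshold. Its call was lost without mimic-ctrl2 or either isomiR array (adjusted p-values of 0.087 to 0.19).

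Of 12 other tubulin genes 5 were tested. With the isomiR in MCF10A 1 of them was called lower, where 7.34% of all genes were. TUBA3D, an alpha tubulin known from testis, had 8.28 and 8.43 on the MCF10A control arrays and 7.53 and 7.87 with the isomiR (difference -0.66, limma adjusted p = 0.0157), and against the canonical mimic the difference was -0.75. The first call was lost without mimic-ctrl2 or replicate 1 of the isomiR (adjusted p-values of 0.076 and 0.12), and the second without replicate 1 of either mimic (0.081 and 0.058). TUBA3D is closely related to the alpha tubulins above, and its probe could not be checked for their signal.

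With the isomiR in MCF10A, 5.27% of all genes were called higher and 7.34% lower, and in MDA-MB-231 2.40% and 5.09%. Of 25 microtubule-associated proteins 17 were tested. With the isomiR 1 was called, MTUS1, which rose in MCF10A from 6.37 and 6.51 to 7.16 and 7.24 (difference 0.76, limma adjusted p = 0.0103), a call lost without mimic-ctrl1 (0.69) or replicate 2 of the isomiR (adjusted p = 0.063). MAP4, found on microtubules of most cells, differed from control by -0.02 and -0.08 with the isomiR in MCF10A and MDA-MB-231. STMN1, which binds free tubulin dimers and destabilizes microtubules, differed by 0.18 and 0.51, the latter with a limma adjusted p of 0.0319 but under the fold threshold. Of 4 severing enzymes and 9 genes of the gamma-tubulin ring complex tested, 0 were called with the isomiR against control. Against hsa-miR-140-3p in MCF10A, the severing enzyme KATNAL1 was higher by 0.83 and MZT1, a small protein of the ring complex, lower at -0.63, calls lost without any 1 of the 8 mimic arrays (adjusted p-values of 0.054 to 0.18 and 0.058 to 0.22).

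Between the lines under control mimics, all of these lists but the autoregulation genes held called genes, where 19.9% of all genes were called lower in MDA-MB-231 and 20.5% higher. Of the folding cofactors 3 of 6 were higher in MDA-MB-231 and 0 lower, TBCC by 1.36, ARL2 by 0.86 and TBCB by 0.76, where ARL2 was not called without mimic-ctrl2 of MDA-MB-231 (0.60) nor TBCB without mimic-ctrl1 of MCF10A (0.66). Of the CCT subunits CCT5 was higher by 0.81, but not called without mimic-ctrl2 of MDA-MB-231 (0.64), and TCP1 lower at -0.71. Of 6 prefoldin genes PFDN1 was higher by 0.99 and PFDN4 by 1.16, the latter not called without mimic-ctrl2 of MDA-MB-231 (adjusted p = 0.062), and the severing enzyme KATNAL1 by 1.31. Among microtubule-associated proteins 3 of 17 were higher and 2, MAP7 and MTUS1, lower. MAP1B, a protein best known from neurons, was not above background on any MCF10A array and at least 4.25-fold higher in MDA-MB-231, and MAP7 was not above background on any MDA-MB-231 array and at least 3.80-fold higher in MCF10A. MAPRE1 and CLIP1, which bind growing microtubule ends, were higher in MDA-MB-231 by 1.13 and 0.99. Of the modifying enzymes 3 of 12 were higher, including the deacetylase HDAC6 by 1.33, and 3 lower, including TTLL11 at -1.54 and TTLL12 at -1.01. The gamma tubulin genes TUBG1 and TUBG2 were higher by 0.75 and 1.28, TUBG1 not without mimic-ctrl1 of MDA-MB-231 (0.66), while TUBA3D was lower at -0.66, a call lost without mimic-ctrl2 of either line (-0.58 and -0.57). TUBGCP4 and MZT1 of the ring complex were lower at -1.33 and -1.28.

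Other genes moved with the same mimics. Of 9 proliferation genes tested, TOP2A rose with the isomiR in MCF10A by 0.86 (limma adjusted p = 0.0477), and TOP2A, CDK1 and PCNA rose in MDA-MB-231 by 1.20, 0.96 and 0.79. Their summed normalized intensity was 11269 to 11284 on the MCF10A control arrays and 14434 to 15141 with the isomiR, and 8521 to 11240 against 16777 to 16906 in MDA-MB-231. With the canonical mimic it was 11773 to 12244 in MCF10A and 12782 to 13383 in MDA-MB-231. Of the 5 epithelial markers tested, KRT14 fell by 1.44 with the isomiR in MCF10A, while CDH1 and EPCAM rose by 1.16 and 1.17. With the canonical mimic KRT14 fell by 0.96 there and EPCAM rose by 0.97, and CDH1, at 0.17, was not called. The sum of these markers was 15032 to 17494 on the MCF10A control arrays, 10550 to 10959 with the canonical mimic and 11469 to 11815 with the isomiR. Both sums add linear intensities, so the brightest probes weigh most. In MCF10A KRT5 and KRT14 lay between 11.31 and 13.05 on the log2 scale, and CDH1, EPCAM and LAMB3 between 7.86 and 10.94. The part of the proliferation genes and markers in the differences of the tubulins was not tested.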

How the data were processed

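Gene expression of 12 arrays was taken from a table of intensities on a linear scale, which the authors had normalized and deposited. The array unit's normalization method is not given in the sources used here. Sorted values nearly coincided between arrays, most closely within a line, and whether the lines were normalized together is not given either. A second table had 24 columns that match no sample label and was not used. Of 47323 probes, 4 with 7 missing values were left out, and 30111 were paired with 1 gene by the platform annotation.

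In R 4.3.3 with limma 3.58.1, values were corrected by normexp with an offset of 16, with 455 olfactory receptor probes as negative controls, quantile normalized over the 12 arrays and put on a log2 scale. Probes above the 0.99 quantile of these controls (intensities of 129 to 142) on 2 or more arrays passed the filter, and each gene was tested by its brightest one (10494 genes). The number of arrays limits the precision. Linear models with 6 group means (6 residual degrees of freedom) and empirical Bayes moderation gave the 9 comparisons. The 65% threshold, the adjusted p of 0.05 and the threshold for increases, a log2 fold change of 0.72, follow the study's text, and on the log2 scale an increase had to be larger than a decrease to be called. An at least N-fold value sets the brighter group's mean against the higher of the dim probe and the lowest signal above background on each array.

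All 10 members were named with every probe. Of the other lists, up to 4 called genes per list and comparison were named, by size of change, where the 2 arrays lay on the same side of both arrays of the other group; CCT5, STMN1, TTC5 and MAP4 were always named. The 3 genes most like each member called with a mimic were named by Pearson correlation. Members and lists were chosen with earlier results of these data known. Alternatives covered background correction, scaling, the deposited values, the filter, the probe rule, each line alone, trend and robust moderation, the methods' t-test, the fold threshold, the replicate block and leaving out each array. The code was tested on simulated data.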

Additional observations from a re-analysis of the deposited data

Results flagged for a closer look

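Responses to 5’isomiR-140-3p differed between MCF10A and MDA-MB-231, by a test of the difference itself, for TUBB3 at 1.02 on the log2 scale (limma adjusted p = 0.0225). The same test gave 1.40 for TTLL11 (limma adjusted p = 0.0253). TTLL11 lay close to background on the MDA-MB-231 control arrays, so a fall there could be measured only in part. Both genes were lower with the isomiR on both arrays in MCF10A alone, and groups of 2 arrays are too small for a test of single outlying arrays.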

How the results depend on the processing

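Without background correction, and on the deposited values on a log2 scale, 1 tubulin (TUBB3) in place of 2 was called lower with 5’isomiR-140-3p against control in MCF10A, with 410 and 418 genes called lower in all in place of 770, and 241 and 237 higher in place of 553. Under the same settings 1 (TUBA4A) in place of 2 was lower at baseline, and 2 (TUBA4A and TUBB3) in place of 1 differed between lines in the response. The methods' t-test gave 0 tubulins after adjustment in the first comparison, where it called 0 genes at all, and 0 at baseline, where it called 201 lower. Before adjustment it gave 2 and 1. At baseline, 1 tubulin was called higher with no filter or the 0.95 quantile filter (TUBB2B) and with a call on any probe (TUBB), and 2 without a fold threshold. Without a fold threshold 4 were lower between the mimics in MCF10A.

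Leaving out 1 array at a time, the tubulins called lower with the isomiR in MCF10A numbered 1 to 2 (1 without mimic-ctrl2), those called higher in MDA-MB-231 0 to 1 (1 without mimic-ctrl1), those lower at baseline 1 to 2 (1 without mimic-ctrl2 of MDA-MB-231), those higher at baseline 0 to 1 (1 without mimic-ctrl2 of either line) and those with a line difference 0 to 3 (3 without mimic-ctrl1 of MDA-MB-231: TUBA4A, TUBB3 and TUBB6). The cause of these changes was not tested. All called members kept their direction under each alternative, and of the single values of members 1886 kept their side of the thresholds, 15 crossed to being called and 16 to not being called.

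Both control mimics of a line carry number 1, so the replicate block was possible only between the mimics, where 0 tubulins were called with it, as with the same 8 arrays without it, a setting chosen after seeing the data. Arrays of 1 number deviated together by a correlation of only 0.022 in MCF10A and -0.022 in MDA-MB-231, so no pairing by number was seen. Whether arrays of 1 number were prepared together cannot be told from these values. With 2 arrays a group, differences under the fold threshold are measured loosely, and TUBB2B, above background on 1 array, was not tested.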
